A study of Homo sapiens with 24 samples.

Results

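To describe how the set of methylated transcripts differed between human pluripotent stem cells (hPSC) and the definitive endoderm (DE) made from them, the DE peak list of an m6A-seq experiment was compared with the hPSC list gene by gene. In m6A-seq, short pieces of RNA that carry N6-methyladenosine (m6A) are pulled down by an antibody (IP), sequenced and set against the same RNA before the pull-down (input). A peak is a stretch of transcript with more IP than input reads. Members were all genes with at least 1 peak in either list, 16287 genes of the 18646 with a peak in any of the 4 lists of the same batch. Of these, 14339 genes had a peak in hPSC and 13555 in DE. A gene was called gained with peaks in DE only, lost with peaks in hPSC only, and kept with peaks in both.

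The 2 populations accounted for 8 of the 24 samples of the series, 2 IP and 2 input libraries each. Undifferentiated MEL1 human embryonic stem cells, kept with bFGF on CF1 feeder cells, were the hPSC group. DE came from the same cells in RPMI, with activin A and the GSK3 inhibitor CHIR99021 on the first day and activin A with rising serum on the next 2 days. The labels name the DE cells but not the day of their harvest. Both groups are the same cell line, the INS GFP/W reporter line of MEL1, and neither carries a knockout. The labels give all 8 libraries the same batch, and mRNA was enriched before fragmentation.

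Activin A acts through the receptors of Nodal, a TGF-β family ligand, and SMAD2/SMAD3, which enter the nucleus with SMAD4 and the forkhead factor FOXH1. High Nodal or activin signalling together with Wnt signalling drives pluripotent cells through a primitive streak-like state into DE, the precursor of gut, liver and pancreas, marked by SOX17, FOXA2, GATA4, GATA6 and CXCR4. m6A is placed on mRNA by the METTL3-METTL14 complex, mostly near stop codons and in long exons, and is known to bear on the stability of transcripts of cell identity genes.

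Each population had a single deposited list of peaks, for which its libraries were analysed jointly. No value per library was used here, so no spread between replicates exists for any number below, no test was made and every difference is between 2 pooled lists. Intervals are 95% intervals of counting error only (Wilson for shares, exact for ratios of reads), and reads that are PCR copies are not independent molecules. In these bulk samples fewer cells of a type and less RNA per cell cannot be told apart. The lists held 36659 peaks in hPSC and 32680 in DE. Inside peaks, hPSC had 7970658 input and 79822815 IP reads, and DE had 12602604 and 30723097. Peaks of DE had a median GC content of 46.9% against 50.3% in hPSC.

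One property of the files limited which read values could be used. In both lists the read counts of a row fitted the gene and position of that row only in stretches where the gene identifiers followed their order without a break. There the logarithm of the exonic length of a peak and that of its input reads had a Pearson r of 0.460 in hPSC and 0.440 in DE across peaks, against 0.0219 and 0.0224 in the other rows, and in blocks of 2000 rows after the stretch the correlation returned (0.242 to 0.418) when counts were read 1 or 2 rows away. Peak pairs of hPSC and DE at the same place showed the same break. An overlapping pair, here and below, shares over 50% of the exonic length of both peaks. Log2 input reads had an r of 0.766 over 5968 pairs inside the stretches and 0.211 over 9671 other pairs. Gene classes, peak numbers and positions below rest on coordinates and identifiers and use all rows. Read values are given only for the 5253 genes (32.3%) whose peaks all lay inside the stretches, 442 gained, 723 lost and 4088 kept. For POU5F1, NANOG and SOX17, among others, presence and number of peaks are therefore reported without reads.

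The 14 windows below show what lay at the centre of the finding, an m6A-type GGAC inside a peak of a gene that marks one of the populations. GGAC is the most common form of the sequence methylated by METTL3-METTL14. Each window is 25 bases of the transcript strand of GRCh38 in DNA letters, 5′ to 3′, around the GGAC nearest to the middle of the peak with the most input reads that held one, and capitals mark the GGAC. Of all peaks, 57.6% in hPSC and 54.4% in DE held GGAC on the transcript strand, and 41.8% and 37.9% held it on the opposite strand, a share that peak length sets in part. A GGAC in a peak is a match and not a measured methylated base.

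Shown first are 4 gained genes. GATA6 and FOXA2 encode endoderm transcription factors, EOMES a T-box factor of the primitive streak and GSC (goosecoid) a homeobox factor of the organizer.
EOMES, CDS, chr3:27717134-27717158, minus strand: taaagtgtgaGGACattaatgctga
GATA6, 3′UTR, chr18:22201080-22201104, plus strand: gccaggactaGGACctgggccttgc
FOXA2, 3′UTR, chr20:22581789-22581813, minus strand: cccggatcgaGGACaagtgagagag
GSC, 3′UTR, chr14:94768435-94768459, minus strand: ctaactcgaaGGACttgcacagaca

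The next 4 belong to kept genes with far more input reads in DE, and all but that of CXCR4 lay in a peak in both lists. CER1 (Cerberus) encodes a secreted inhibitor of Nodal, NODAL the ligand itself, FZD5 a Wnt receptor and CXCR4 a chemokine receptor by which DE is commonly sorted. The hPSC peak of CXCR4 (136115524-136115698) reached only the last bases of its window as printed.
CER1, CDS, chr9:14720132-14720156, minus strand: gcatgaagatGGACacatcctacat
NODAL, CDS, chr10:70435761-70435785, minus strand: ggtttcagatGGACctattcactgt
FZD5, 3′UTR, chr2:207763541-207763565, minus strand: gtggccaacaGGACagagcacatca
CXCR4, CDS, chr2:136115695-136115719, minus strand: gaagcatgacGGACaagtacaggct

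The last 6 belong to kept genes with fewer input reads in DE. DPPA4 is a chromatin protein of pluripotent cells, FGF2 the growth factor that maintains them, USP44 a deubiquitinase, SFRP2 a secreted Wnt modulator, MYCN a MYC family factor and THY1 a surface protein of pluripotent cells and fibroblasts. All but that of USP44 lay in a peak in both lists.
DPPA4, exon of another isoform, chr3:109333528-109333552, minus strand: tcttgaaaccGGACttcctattcta
FGF2, CDS, chr4:122892336-122892360, plus strand: atccaaaacaGGACctgggcagaaa
USP44, CDS, chr12:95533180-95533204, minus strand: tctgtcatcaGGACtaagtggtgga
SFRP2, CDS, chr4:153781544-153781568, minus strand: tctggtcatgGGACagaaacagggt
MYCN, 3′UTR, chr2:15946225-15946249, plus strand: gtgggcagtaGGACcaccagtgtgg
THY1, exon of another isoform, chr11:119418945-119418969, minus strand: ggcctagcacGGACatggtctgtcc

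Most genes with a peak had one in both populations. Of the 16287 genes, 11607 were kept (71.3%, 70.6% to 72.0%), 2732 lost (16.8%, 16.2% to 17.4%) and 1948 gained (12.0%, 11.5% to 12.5%). The hPSC list is longer, and with its peaks of lowest deposited p taken up to the length of the DE list, 2403 genes were lost and 2380 gained. With p below 1e-05 in both lists, 3048 were lost and 2444 gained. Outside the rows with usable counts (39.2% of hPSC rows) the deposited p does not belong to its row, so these counts are rough, and the part of list length was not tested. Among the 12359 protein-coding genes, 77.6% were kept, 13.8% lost and 8.6% gained. Long noncoding RNA genes made up 33.2% of gained and 27.7% of lost genes, against 12.3% of kept genes. Of the kept genes, 10384 (89.5%) had at least 1 DE peak with over 50% of its exonic length inside hPSC peaks. In 617 (5.32%) no DE peak shared any exonic stretch, however short, with an hPSC peak.

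Gained and lost genes differed from kept genes in peak number, reads and length. A single peak was all that 72.5% of gained and 69.2% of lost genes had. Only 10.9% and 12.5% had 3 or more. Where read counts were usable, gained genes had a median of 81 input reads in DE, against 423 for kept genes in the same list. Lost genes had 40 input reads in hPSC, against 291 for kept genes. Gained and lost coding genes were shorter as well, with median exonic lengths of 4589 and 4587 nt against 5743 nt. Under 10 input reads lay behind 52 of 442 gained genes (11.8%) and 105 of 723 lost genes (14.5%). The part of read depth in these classes was not tested.

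Peaks of the classes also differed in place and composition. In gained genes 46.9% (44.2% to 49.6%) of placed peaks had their midpoint in the 3′UTR and 6.02% in the 5′UTR. In lost genes the shares were 36.8% (34.9% to 38.8%) and 9.77%. The kept genes moved the same way between the lists, with 42.0% in the 3′UTR in DE against 38.0% in hPSC, and 4.05% in the 5′UTR against 6.15%. Median GC content was 54.0% in lost peaks and 46.0% in gained peaks, and 50.0% and 47.0% in kept genes in hPSC and DE. So the difference between gained and lost peaks had the direction of a difference between the lists as wholes, and a library-wide difference in GC and one between the gene classes cannot be told apart. Among peaks of 75 to 125 nt, GGAC was present in 39.8% (37.3% to 42.4%) of lost and 36.5% of kept peaks in hPSC, and in 36.1% (33.1% to 39.2%) of gained and 34% of kept peaks in DE.

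Many endoderm markers were gained. Of 25 endoderm markers, 24 had a peak, of which 12 were gained, 12 kept and 0 lost, against 12.0% gained among all genes. The gained members included the transcription factors SOX17, FOXA1, FOXA2, GATA4, GATA6, HHEX and PRDM1, the growth factor FGF17, the receptors ERBB4 and LGR5, and APOA2, an apolipoprotein. VIL1 had no peak in the lists used here. Primitive streak genes showed the same split: of 12, 4 were gained (EOMES, GSC, LHX1 and TBXT), 4 kept (MIXL1, NODAL, SP5 and WNT3), 0 lost and 4 had no peak in either list.

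Reads in the gained endoderm peaks differed widely. GATA6 had 4 peaks with 11293 input and 33517 IP reads in DE, GATA4 4 peaks with 7543 and 24256, and FOXA2 2 peaks with 3858 and 13124. These were all well above the median of 81 input reads of gained genes. FGF17 had 1 peak with 3494 input reads, PRDM1 4 peaks with 1482 and HHEX, a homeobox factor of anterior endoderm, 1 peak with 872. FOXA1 had 4 peaks with 375 input reads and 1536 IP reads. LGR5 had 235 input reads and APOA2 34, so that the APOA2 peak was a shallow one. Of the streak genes, EOMES had 4 peaks with 5167 input reads and GSC 1 peak with 4555. SOX17 had 3 peaks, ERBB4 5, LHX1 5 and TBXT 2, without usable counts.

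The main peak of FOXA2 (chr20:22581280-22582129, 850 exonic nt) held 2887 of its input reads and that of GATA6 (chr18:22200855-22201529, 675 nt) held 6303, both with their midpoint in the 3′UTR. The main peak of EOMES (chr3:27716774-27717573, 800 nt) had 3816 input reads and its midpoint in the CDS. All 3 were far longer than the median gained peak of 125 nt. By the rule of most input reads, GATA6, GATA4 and EOMES were also among the 6 leading gained coding genes with usable counts. The others were DPH6 (7332 input reads), GMPR (7304) and ENSG00000173867 (11756), whose row lists 3 overlapping genes. The ENSG00000173867 peak lies inside the span of a DE peak assigned to DET1, given below, so these genes are not separate results. In DPH6 and GMPR most reads came from a peak of 175 exonic nt stretched over 110393 and 16468 nt of genome, introns included, so which transcript gave them is uncertain.

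Pluripotency genes were mostly kept. Of 25, 22 had a peak, of which 19 were kept, 2 lost (PRDM14 and UTF1) and 1 gained (ESRP1), against 16.8% lost among all genes. With p below 1e-05 in both lists, 5 were lost and 2 gained. SOX2, DNMT3B and DPPA2 had no peak assigned to them in either list. Several gene identifiers were listed for 17.0% of hPSC peaks, each assigned to 1 gene, and the part of this in such absences was not tested. The paper reports m6A peaks at OCT4 (POU5F1), SOX2 and NANOG specifically at the hPSC stage. The lists used here differ from that for SOX2, and they hold DE peaks of POU5F1 and NANOG. POU5F1 had 1 peak in both lists, at chr6:31164337-31164411 in hPSC and 31164337-31164386 in DE. NANOG went from 3 peaks to 2, SALL4 from 7 to 6 and L1TD1 from 5 to 3. Fewer peaks were called for 10 of the 19 kept members, more for 2 (JARID2 and LIN28B) and the same number for 7, against 34.1%, 23.3% and 42.6% of all kept genes. PRDM14, a zinc finger repressor of differentiation, had 4 peaks with 1028 input and 8478 IP reads in hPSC and none in DE.

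To compare levels in kept genes, input reads per kb of exonic peak length were used, with 1 read added. A change is the log2 of DE over hPSC minus the median of that log2 over all kept genes, since DE had more input and fewer IP reads. These medians were 0.67 for input, -1.37 for IP and -2.02 for the ratio of IP to input. Of 3797 kept genes with usable counts and at least 100 input reads in the 2 lists together, 665 (17.5%) were at least 2-fold higher in DE and 649 (17.1%) at least 2-fold lower. An 8-fold difference was passed by 66 genes upwards and 58 downwards, and a 64-fold difference by 8 and 3. Input reads in peaks follow the amount of transcript over the same stretch, but they cover peaks only.

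Input in the peaks of 5 of 6 kept endoderm markers was at least 2-fold higher in DE, and in 0 it was at least 2-fold lower, against 17.5% and 17.1% of all kept genes. CER1, the secreted Nodal and BMP antagonist, had the largest change of the 3797 genes. Its 2 peaks held 108 input and 846 IP reads in hPSC and 89465 and 274438 in DE, a change in input of 8.77 (8.51 to 9.07). CXCR4 had 4 input reads in its single hPSC peak and 14180 in 4 DE peaks, a change of 7.78 (6.75 to 9.98). So few reads leave the hPSC level of CXCR4 poorly known, while that of CER1 rests on over 100. STC1, a secreted glycoprotein, had 104 and 6649 input reads, a change of 3.32 (3.05 to 3.62), and FZD5 1066 and 9610, a change of 2.50 (2.41 to 2.60). EPCAM, an epithelial adhesion molecule present in both cell types, had 1505 and 4339 input reads and a change of 1.44, but its only overlapping pair of peaks gave 0.89, under 2-fold. KIT had only 34 and 128 reads and a change of 0.54 (0.01 to 1.16). Over the 15 usable members the in-peak input sum was 2821 in hPSC and 153557 in DE, of which CER1 held 89465.

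Input in the peaks of 5 of 9 kept pluripotency genes was at least 2-fold lower in DE, and in 0 it was at least 2-fold higher, against 17.1% and 17.5% of all kept genes. USP44 had 5 peaks with 2905 input reads in hPSC and 4 with 81 in DE, a change of -3.34 (-3.69 to -3.04). SFRP2 had 1 peak in both lists with 2495 and 397 input reads, a change of -3.18 (-3.34 to -3.03). TERF1, a telomere protein abundant in pluripotent cells, had 6384 and 924 input reads and a change of -3.10. These 3 genes had changes of like size. FGF2 went from 4 peaks and 1318 input reads to 2 peaks and 105, a change of -3.0, and DPPA4 from 5 peaks and 6657 reads to 3 peaks and 800, a change of -2.65. KLF4 had 76 input reads in hPSC and 0 in its DE peak, and 31 IP reads there. The other 4 were within 2-fold, among them VRTN at 0.49 (-0.23 to 1.09 over its 3 pairs), ZIC2 at 0.46 and the let-7 regulator LIN28A at 0.38. LIN28A had 1 peak in each list, with 2145 input reads in hPSC and 2965 in DE, but these peaks did not form an overlapping pair.

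**Figure D1:**
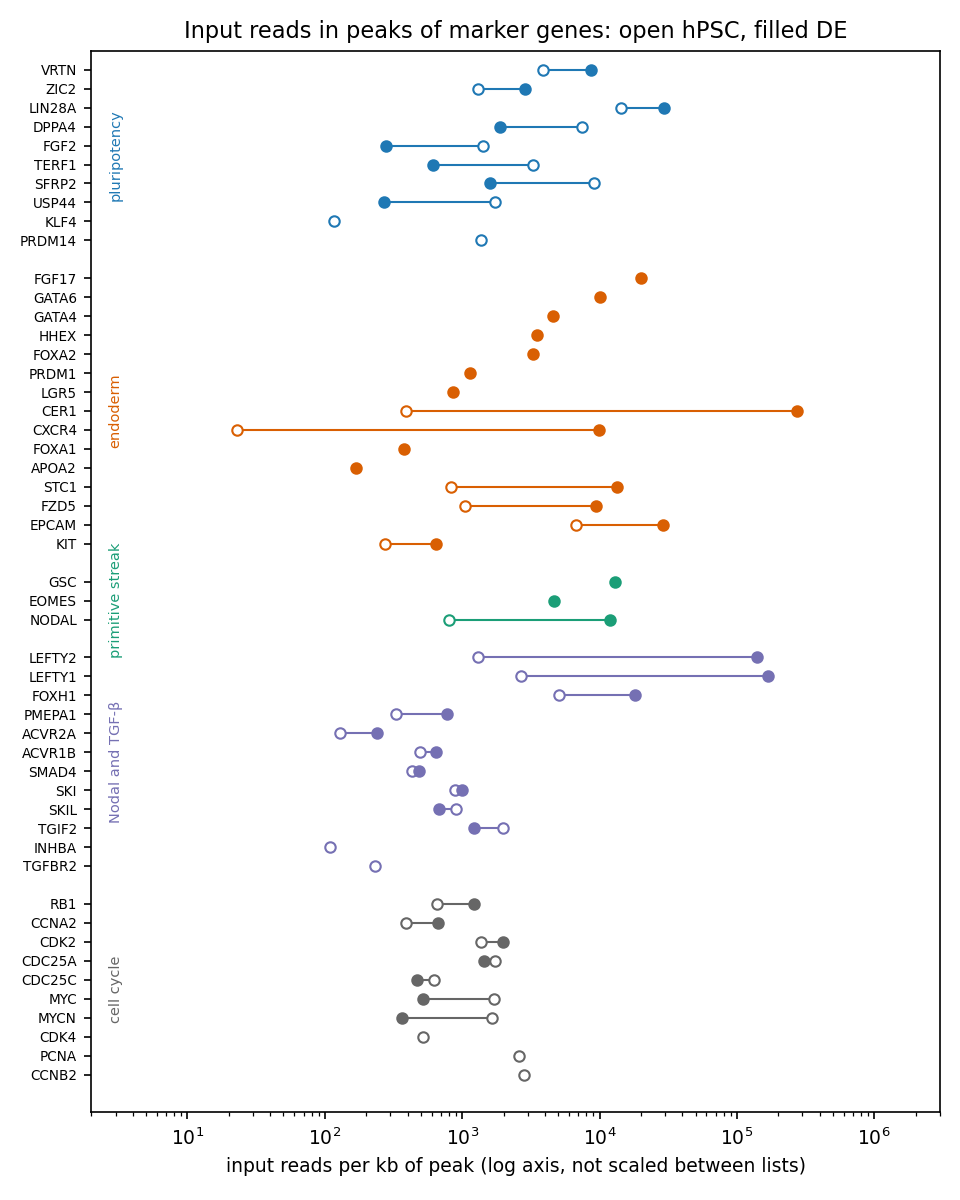
Each row is a marker gene with usable counts, and points give input reads per kb of exonic peak length on a log axis, open for hPSC and filled for DE, without scaling between the lists. A gene with 1 point had no peak in the other list, apart from KLF4, whose DE peak held 0 input reads. CER1, LEFTY1, LEFTY2 and CXCR4 have the widest gaps, with DE to the right, and USP44, SFRP2, TERF1, FGF2 and DPPA4 have DE to the left.

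Genes of the Nodal and TGF-β pathway were all but 2 kept: of 28, 24 had a peak, 22 were kept, 2 lost (0 with p below 1e-05) and 0 gained, against 71.3%, 16.8% and 12.0% of all genes. Of 12 kept members with usable counts, 5 were at least 2-fold higher in DE and 2 at least 2-fold lower, against 17.5% and 17.1% of all kept genes. The ligand NODAL had 2 peaks in both lists, with 725 input reads in hPSC and 9876 in DE, a change of 3.22 (3.12 to 3.34), and its 2 overlapping pairs of peaks gave 2.93 and 3.32. The inhibitor LEFTY1 had 3 peaks in both, with 1551 and 84889 input reads, a change of 5.31 (5.23 to 5.38), and its 3 pairs gave 4.92 to 5.67. For LEFTY2, 392 and 22027 input reads gave 6.06 (5.92 to 6.22). LEFTY1 and LEFTY2 are near-identical neighbours, their rows list several gene identifiers and 1 DE peak of LEFTY2 covered 8 exonic nt, so the split of reads between them is uncertain. The pair of LEFTY2 peaks in the CDS alone gave 5.72. FOXH1, the nuclear partner of the SMADs, had 510 and 5002 input reads and a change of 1.16, but its peaks formed no overlapping pair.

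The type I receptor ACVR1B had 355 and 353 input reads and a change of -0.28, the type II receptor ACVR2A 0.21 (-0.19 to 0.63) and SMAD4 -0.50. In SMAD4 the 2 overlapping pairs went opposite ways, with -2.33 in the CDS and 0.38 in a peak of another isoform. The target PMEPA1, which limits SMAD signalling, had 0.56. The repressors SKIL and TGIF2 were the 2 members at least 2-fold lower, with -1.10 (-1.22 to -0.97) and -1.37 (-1.52 to -1.22), while SKI had -0.50. The interval of SKIL reached past the 2-fold line, and its 3 pairs ran from -1.59 to -0.75. Lost were INHBA, which encodes the activin A subunit, with 11 input reads in hPSC, and the TGF-β receptor TGFBR2 with 64. SMAD2 went from 2 peaks to 5 and SMURF2, a ubiquitin ligase of the pathway, from 1 to 4, without usable counts.

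Of 35 Wnt pathway genes, 33 had a peak: 28 were kept, 3 gained (DKK1, LGR5 and WNT8A) and 2 lost (WNT5A and GSK3A). The gained share of 9.09% was near the 12.0% of all genes and the lost share of 6.06% below the 16.8%, but 4 were lost with p below 1e-05. Among 9 kept members with usable counts, FZD5, DVL3 and APC were at least 2-fold higher and SFRP2 and FZD7 at least 2-fold lower, against 17.5% and 17.1% of all kept genes. The receptors FZD5 and FZD7 thus moved in opposite directions. The peaks of DVL3 formed no overlapping pair. FZD7, the Frizzled of pluripotent cells, went from 5 peaks and 5772 input reads to 3 peaks and 3453, a change of -1.15 (-1.21 to -1.09), with -1.86 to -0.76 over its 3 pairs. APC, a scaffold of the β-catenin destruction complex, had 11 and 13 peaks with 1841 and 7164 input reads and a change of 1.24, and its 7 pairs gave 0.57 to 1.85. These sums rest mostly on 1 APC peak that spans several genes, with 1467 of the hPSC and 5399 of the DE reads. It contains nearly all other APC peaks, so reads may be counted more than once, and its own pair gave 1.21. WNT8A had 2 DE peaks with 66 input reads, and WNT5A had 4 hPSC peaks with 144. RNF43, which removes Frizzled from the membrane, went from 6 peaks to 1.

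The m6A machinery itself carried peaks in both populations: all 23 of its genes had a peak, 22 were kept, 1 gained and 0 lost (1 with p below 1e-05), against 71.3%, 12.0% and 16.8% of all genes. Of 10 kept members with usable counts, 1 was at least 2-fold higher and 2 were at least 2-fold lower in input, against 17.5% and 17.1% of all kept genes. The writer subunits METTL14 (-0.06), WTAP (0.03) and ZC3H13 (-0.08) and the readers YTHDF1 (0.35) and YTHDC2 (-0.01) stayed within 2-fold over all their peaks, while single pairs ran from -1.21 in ZC3H13 to 1.33 in YTHDF1. The writer adaptor RBM15 had 1156 and 309 input reads and a change of -1.64 (-1.83 to -1.46), and the mRNA-binding IGF2BP3 1906 and 654 and a change of -1.89, but its 2 overlapping pairs went opposite ways (-1.74 and 0.46). HNRNPA2B1 went from 9 peaks to 5 with 19605 and 61752 input reads, a change of 1.79, but its 4 overlapping pairs ran from -1.04 to 1.90. METTL3 went from 4 peaks to 1 and ALKBH5 had 3 in both, without usable counts. The single DE peak of the demethylase FTO rested on 9 input and 45 IP reads.

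Of 30 cell cycle genes, 26 had a peak: 21 were kept, 4 lost and 1 gained (CDK1). The lost share was 15.4%, against 16.8% of all genes, and with p below 1e-05 the number lost was 7 in place of 4. In-peak input was at least 2-fold lower in 3 of 7 kept members and at least 2-fold higher in 0, against 17.1% and 17.5% of all kept genes. MYCN had 2435 and 394 input reads, a change of -2.84 (-3.0 to -2.69), and MYC 1070 and 259, a change of -2.39. CDC25C, a mitotic phosphatase, had -1.08 (-1.39 to -0.76), an interval that reached past the 2-fold line, and its only overlapping pair gave -2.55. CDC25A, within 2-fold at -0.92, had a single pair that gave -1.74. CDK2 (-0.15) and RB1 (0.22) stayed within 2-fold. Lost were PCNA with 580, CCNB2 with 495 and CDK4 with 126 input reads in hPSC, and CCNE2.

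Markers of other cell types were few. Of 10 ectoderm markers 5 had a peak (1 gained, 1 lost, 3 kept), of 10 mesoderm markers 5 (3 gained, 0 lost, 2 kept), of 10 trophoblast markers 5 (3 gained, 1 lost, 1 kept) and of 10 fibroblast markers 5 (1 gained, 0 lost, 4 kept). With so few members, the gained share was 60% for mesoderm and for trophoblast markers, above the 50% of endoderm markers and the 12.0% of all genes. The mesoderm markers gained were TBXT, also a streak gene, HAND1 and TWIST1, the last with 103 input reads in DE, while the mesoderm receptor KDR had 521 and 251 input reads and a change of -1.77. MESP1, TBX6, MSGN1, FOXF1 and ISL1 had no peak in either list. Of the fibroblast markers, THY1 had 5855 and 1100 input reads, a change of -2.16, COL1A1, COL1A2 and FBN1 were kept without usable counts, TWIST1 was gained, and COL3A1, DCN, LUM, POSTN and VIM had no peak. In-peak input over usable markers was 8706 and 7233 for ectoderm, 575 and 419 for mesoderm, 40 and 7 for trophoblast and 5855 and 1203 for fibroblast markers in hPSC and DE, and the part of such cells in the results above was not tested. Of 12 markers of later pancreas and liver, HNF4A was gained, SOX9 and ONECUT1 were lost and 9, among them PDX1, INS and ALB, had no peak. Of 10 housekeeping genes 7 were kept and 1 (PPIA) lost, and among those with usable counts EEF1A1 was at 1.11 and TUBA1B at -0.12.

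IP reads followed input reads from gene to gene. IP reads per kb were at least 2-fold higher in 612 of the 3797 genes (16.1%) and lower in 599 (15.8%). Spearman's rho between the changes in IP and in input was 0.95 across genes, which are not independent replicates, and both changes share the peak length and the 2 lists. The ratio of IP to input, summed over the peaks of a gene, moved far less: 32 genes (0.843%) were at least 2-fold higher in DE and 35 (0.922%) lower. These counts were 4 and 11 over overlapping peaks only, and 18 and 13 with a pseudocount of 5. The SD over genes was 1.29 for the change in input and 0.37 for the change in the ratio. Of 665 genes with input at least 2-fold higher, 95% kept the ratio within 2-fold (median -0.13), and of 649 with input at least 2-fold lower, 95.7% did (median 0.17). The ratio has input as its denominator, so part of this opposite sign is built in. It was read only inside called peaks of genes kept in both lists, and its median was set to 0. A gene that lost its enrichment, or a shift shared by all genes, therefore cannot show in these counts.

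Many 2-fold changes in the ratio came with few reads. Of the 32 genes with a higher ratio, 16 had under 10 and 19 under 20 input reads in 1 list, and of the 35 with a lower ratio, 14 and 21 had. By the lower input of the 2 lists, the SD of the change was 1.45 below 10 reads, 0.56 from 10 to 50, 0.35 from 50 to 200, 0.26 from 200 to 1000 and 0.24 above. A 2-fold change in the ratio was present in 55.6% of genes in the first of these classes and in 0 of 493 genes in the last. Among the 6 largest positive changes were PPA2 (3.28), with 2 input reads in DE, and FREM2 (2.52), an extracellular matrix protein, with 3. Among the 6 largest negative changes were LRRN4 (-2.65), with 0 input reads in hPSC, and FLRT3 (-1.99), with 2.

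Most marker genes stayed within 2-fold in the ratio, whatever their change in input. CER1 changed by 0.68 in the ratio against 8.77 in input, LEFTY1 by 0.26 against 5.31, NODAL by -0.06 against 3.22 and FZD5 by 0.27 against 2.50. Genes lower in DE gave small values as well: SFRP2 changed by -0.04 in the ratio against -3.18 in input, TERF1 by -0.06, DPPA4 by 0.06, USP44 by -0.25 and FGF2 by -0.52. Of the kept members with usable counts and at least 100 input reads in the endoderm, pluripotency, Nodal and TGF-β, Wnt, m6A and cell cycle lists, only CXCR4 passed 2-fold in the ratio, with -1.41, and its hPSC value rests on 4 input reads. KLF4, with 0 input reads in DE, was below this read limit. In the m6A list the ratio ranged from -0.43 in ZC3H13 to 0.20 in RBM15. By GC content of the peaks the median change in the ratio ran from -0.20 in the 950 genes of lowest GC to 0.23 in the 943 of highest GC, the size of many of these values, and the part of GC in single genes was not tested. The authors' own log2 enrichment differed between the lists by -0.080 to -0.015 at the median in all 4 groups of genes by GC.

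**Figure D2:**
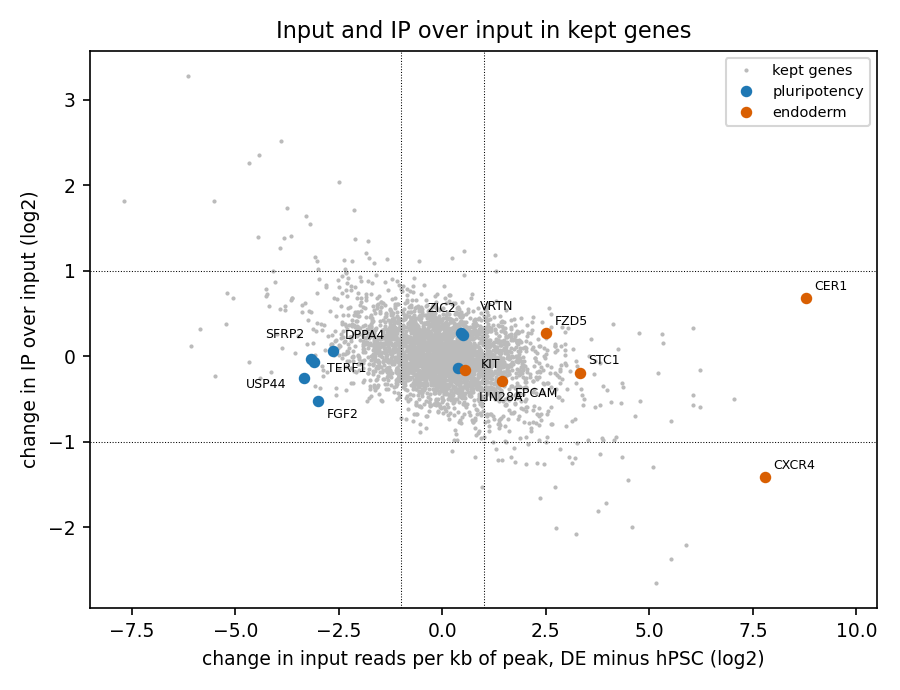
Each grey point is 1 of 3797 kept genes with its change in input reads per kb of peak (horizontal, log2, DE minus hPSC, median set to 0) and its change in IP over input (vertical, same scale). Dotted lines mark 2-fold. Endoderm genes (orange) spread from 0.54 to 8.77 along the input axis and pluripotency genes (blue) from -3.34 to 0.49, and CXCR4 alone among them lies beyond 2-fold in the ratio.

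Peaks of 1 gene shared most of their change in input. Over 4098 overlapping pairs in 1488 genes with usable counts, the SD of the change in input was 1.17 in all and 0.73 within a gene, 39.4% of the variance. At 200 or more reads per pair the within-gene part was 26.1%. Of 633 genes with at least 3 pairs, 27 had all pairs at least 2-fold higher, 40 all at least 2-fold lower, and 32 (5.06%) had pairs in both directions. THY1 was among the uniform ones, with 3 pairs from -2.74 to -2.01. HNRNPA2B1 was one of those with pairs both ways.

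Most kept genes changed by at most 1 peak, and 23.2% had a single peak in both lists. Among kept genes 4947 (42.6%) had the same number, 3957 (34.1%) fewer in DE and 2703 (23.3%) more, and 9081 (78.2%) stayed within 1 peak. With lists of equal size, 3168 had fewer and 3150 more, and with p below 1e-05 in both, 2508 and 1890, with the same limit on the deposited p. In the full lists 648 genes (5.58%) lost 3 or more peaks and 297 (2.56%) gained 3 or more, and the lists had a mean of 2.56 peaks per gene in hPSC and 2.41 in DE. Direction went with input: with input at least 2-fold lower, 47.0% (43.2% to 50.8%) had fewer peaks and 16.6% (14.0% to 19.7%) more. With input at least 2-fold higher, 26.3% had fewer and 33.4% more. With input within 2-fold, 34.1% had fewer and 26.5% more. Input per kb and peak number were taken from the same peaks, so they are not independent. The part of read depth in the calling of peaks was not tested.

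The largest changes in peak number were found in other genes than the markers. TTN, the giant sarcomere protein titin, went from 5 peaks to 47, CFLAR from 7 to 20 and PDE4DIP from 5 to 14. In TTN the peaks had 185 input reads in hPSC and 4897 in DE, a change of 1.46 per kb. In the other direction DST, a cytoskeletal linker, went from 30 peaks to 10, LRRK1 from 15 to 2, SYNE2 from 14 to 2 and FREM2 from 12 to 2. Total exonic peak length in DST was 6125 nt in hPSC and 1825 in DE, and its input per kb over all peaks changed by 0.52. Of its 6 overlapping pairs of peaks, 5 were lower in DE (range of all 6 -2.30 to 0.63), so the direction for DST depends on which peaks are compared.

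Among the 6 lost coding genes with the most usable input reads, OLFML3, a secreted olfactomedin-domain protein, led with 5 peaks, 11712 input and 111226 IP reads in hPSC. HMGA1, a chromatin architectural protein, followed with 1 peak of 50 nt and 5322 input reads, then MPDU1 (2690), EEF1G (2625), ENSG00000269026 (2597) and EIF3G (2470). Of the reads of MPDU1, 1949 lay in a peak whose span holds SOX15 on the opposite strand, and the peaks of EEF1G and ENSG00000269026 list several genes. A lost peak does not mean a lost transcript, since input outside peaks was not used here.

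Besides CER1, CXCR4 and LEFTY2, the largest positive changes in input were those of DET1 (7.05), IER3 (6.23 (6.04 to 6.43)) and COL9A2 (6.22 (5.66 to 7.00)). IER3, an immediate early gene, had 219 input reads in hPSC and 28312 in DE and kept its ratio (-0.16). In COL9A2, a fibril-associated collagen chain, 20 and 6468 reads lay mainly in the 3′UTR. The value for DET1 is uncertain: each of its rows lists 2 or 3 overlapping genes, 11999 of its 23866 DE reads lay in a peak spanning 14414 nt, and the one stretch with a peak in both lists held 79 input reads in hPSC and 11 in DE. The ENSG00000173867 peak named above lies in the span of 14414 nt. The largest negative changes were also uncertain in their gene, since in 5 of the 6 most reads lay in peaks stretched over introns. CACNA2D3, a calcium channel subunit, had a peak at chr3:54627795-54642220 in both lists with 39107 input reads in hPSC and 3123 in DE. Its 175 exonic nt lie in a span of 14426 nt that holds ESRG, a noncoding RNA gene of pluripotent cells, on the opposite strand. The pair of CACNA2D3 peaks gave -4.31, against -5.49 over all its peaks. STRADA (-7.68) had 3192 of its hPSC reads in a span holding LIMD2 on the same strand, and the others were PPA2 (-6.15), HTR2C (-6.08), FBXL2 (-5.84) and SEC13 (-5.52). In STRADA, PPA2, HTR2C, FBXL2 and SEC13 the hPSC and DE peaks did not overlap, so these changes compare different stretches. In DE, STRADA had 4 input reads, PPA2 2 and SEC13 9.

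The later stages of the same batch, pancreatic progenitors (PP) and islet-like organoids (hILO), were not used to form the classes. Of gained coding genes, 39.7% (36.8% to 42.7%) had a peak in PP and 52.3% (49.3% to 55.3%) in hILO. Of lost coding genes, 37.1% (34.8% to 39.4%) and 45.7% (43.4% to 48.1%) had one, and of kept coding genes 83.6% and 86.6%. The intervals of gained and lost genes overlapped in PP and did not in hILO. Among genes with usable counts and at least 50 input reads, the shares in hILO were close (61.8% of 267 gained and 59.0% of 324 lost genes), and in PP the lost genes had the higher share (48.8% against 43.8%). The shares were higher with more peaks: among all gained genes, 39.3% of those with 1 DE peak had a peak in hILO, and 56.1% of those with 3 or more. For lost genes the shares were 35.7% and 45.7%. The libraries of the later stages are again pooled lists of unequal depth, and the part of depth in these shares was not tested.

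Single endoderm genes parted ways after DE. Peak numbers in DE, PP and hILO were 4, 5 and 4 for GATA4, 4, 2 and 2 for GATA6 and FOXA1, and 2, 2 and 3 for FOXA2, and whether these lie at the same places was not tested. These factors are also used by later pancreatic and gut cells. SOX17, EOMES, GSC, LHX1, TBXT, FGF17, LGR5 and ERBB4 had no peak in PP or hILO, and neither had CER1, NODAL and LEFTY2, while LEFTY1, the near-identical neighbour of LEFTY2, had 2 and 1. PRDM1 had 0 in PP and 3 in hILO, and APOA2 likewise. Of the pluripotency genes, POU5F1, NANOG, PRDM14, UTF1, SFRP2 and TDGF1 had no peak in PP or hILO, while SALL4 had 6 and 5 and USP44 6 and 3.

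**Figure D3:**
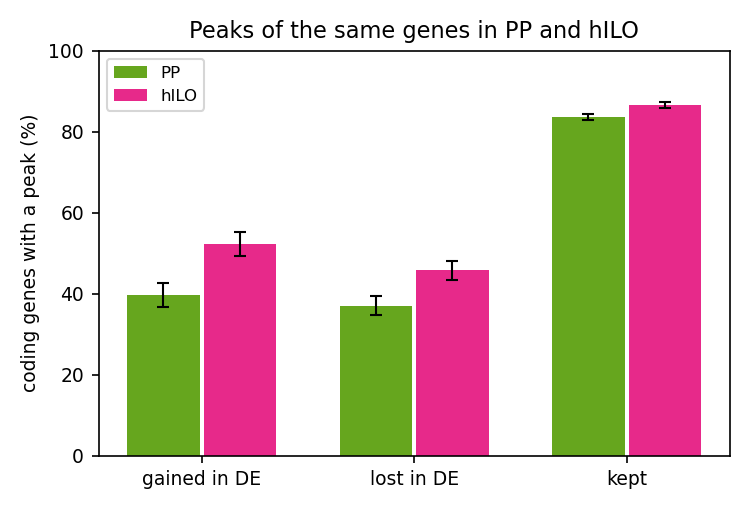
Bars give the share of protein-coding genes with a peak in PP and in hILO, for genes gained in DE, lost in DE and kept, and error bars are Wilson 95% intervals. Kept genes reach 83.6% and 86.6%, and gained genes lie above lost genes in hILO, at 52.3% against 45.7%.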

How the data were processed

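m6A-seq of MEL1 hPSC and DE was used, 2 IP and 2 input libraries each. Before deposition, the authors used fastp for trimming, HISAT2 for alignment to GRCh38 (at most 1 alignment of a read) and exomePeak2 for peaks (stated thresholds IP/input of 1.5 and p of 1e-05). The deposited lists, 1 per population and pooled over its libraries, give read counts of IP and input, a log2 enrichment fitted by the authors, and p-values. Library totals were not used, and whether pooled counts are sums or means is not given in the sources used here, and counting intervals take them as sums. Lists of PP and hILO were used for presence of peaks only, and 2 lists of another batch were not used.

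Each peak was assigned to 1 gene among its listed identifiers by exonic overlap with GENCODE 44, which succeeded for 99.0% of DE and 99.2% of hPSC peaks. Rows with usable counts were the 2 longest runs of peak number per list in which gene identifiers kept their order, less 20 rows at each end: 14359 rows in hPSC and 12068 in DE (39.2% and 36.9%). This restriction was made after the data were seen, and the planned read comparisons were otherwise kept. Scripts (Python 3.11.15, pandas 2.3.3, scipy 1.17.1, statsmodels 0.14.6, pysam 0.24.0) were tested on simulated data.

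The members and the 13 gene lists were chosen with earlier results of these data known. Named genes were list members and the 6 leading coding genes by each measure, and SOX15, ESRG and LIMD2 were named after their positions were seen. Alternatives covered thresholds, overlap, pseudocount, read filter and gene definition. Some list members are not reported here.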

Additional observations from a re-analysis of the deposited data

How the results depend on the processing

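No paired analysis was possible because both lists are pooled over replicates, and leaving out a library was not possible for the same reason. Of 144 alternative values, 102 stayed within the limits set for no change and 42 moved. Thresholds on p, IP/input or reads act on row statistics that, outside the stretches used, do not belong to the row, so these values are rough. With p below 1e-05, genes lost were 7 in the cell cycle list, 1 in the m6A list, 0 in the Nodal list, 5 in the pluripotency list (2 gained) and 4 in the Wnt list, while over all genes 3048 were lost, 2444 gained and 8224 kept. Fewer genes by construction remained among coding genes (1063 gained, 1705 lost), among genes with usable counts (442 gained, 723 lost, 4088 kept, an alternative chosen after seeing the data), with p below 1e-10 (5550 kept, of which 1456 had fewer, 1117 more and 2977 the same number of peaks) and with at least 50 input reads (1541 lost). Genes with fewer peaks were 2518 at IP/input of 3 (1764 more) and 2508 at p below 1e-05.

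With all rows as deposited, also chosen after seeing the data, 2880 genes were higher and 2752 lower in input, 2782 and 2676 in IP, and 295 and 366 in IP over input. The counts for IP over input were 55 higher without the read filter, 18 higher and 13 lower with a pseudocount of 5, and 4 and 11 over overlapping peaks only; the cause was not tested. The share of gained genes with a peak in PP and hILO was 39.7% and 52.3% for coding genes, 43.8% and 61.8% with usable counts and 50 reads, and 38.4% and 59.6% at p below 1e-05. For lost genes it was 37.1% and 45.7%, 48.8% and 59.0%, and 35.0% and 54.2%. Below 10 input reads in a list the change in IP over input had an SD of 1.45 over genes and that in input 3.52, against 0.236 and 0.926 at 1000 or more reads, so depth and size of change cannot be told apart here.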
